A study of Mus musculus with 32 samples.

Results

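Fructose enters and leaves metabolism through a short set of proteins, and 5 of their genes are described here in liver, duodenum, jejunum and ileum: Slc2a5 and Slc2a2 (uptake), Akr1b3 (production) and Khk and Tkfc (breakdown). They were taken by gene symbol from the table of each organ. All 5 occurred in at least 1 table, among 10055 genes listed in any of them. The animals were male mice of 2 genotypes, wild type (WT) and Khk-deficient (Khk KO), with 4 libraries of polyadenylated RNA per organ and genotype, 32 in all, made to study how fructose and ketohexokinase bear on iron. Khk KO was the only difference that the labels gave between the groups. Strain, age, diet and the deleted exons were not given in the sources used here, and neither was whether a mouse gave more than 1 organ. P-values therefore measure the spread between these libraries.

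GLUT5, encoded by Slc2a5, carries fructose across the brush border of the intestinal epithelium, and GLUT2, encoded by Slc2a2, moves glucose and fructose across the basolateral membrane of enterocytes and the surface of hepatocytes. Inside the cell, ketohexokinase (Khk) phosphorylates fructose to fructose-1-phosphate, and after that product is split triokinase (Tkfc) phosphorylates the glyceraldehyde that is released. Cells can also make fructose from glucose through the polyol route, which starts with aldose reductase, encoded in the mouse by Akr1b3.

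A gene entered a table when its unadjusted p in the authors' comparison of Khk KO with WT was under 0.05, so that a listed gene had passed that filter and the level of an unlisted gene was not analysed here. Of the 20 combinations of gene and organ, 12 were listed. Khk was in all 4 tables. Akr1b3 was in the tables of liver, duodenum and ileum and absent from that of jejunum. Slc2a5 was in those of liver and ileum and absent from duodenum and jejunum. Slc2a2 was in those of liver and jejunum and absent from duodenum and ileum, and Tkfc was in the ileum table alone.

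The genes lie on 5 different chromosomes. Khk (ENSMUSG00000029162) spans bases 30921431 to 30931248 of chromosome 5, plus strand. Slc2a5 (ENSMUSG00000028976) spans 150119283 to 150144169 of chromosome 4, plus strand, and Slc2a2 (ENSMUSG00000027690) spans 28697903 to 28731359 of chromosome 3, plus strand. Akr1b3 (ENSMUSG00000001642) spans 34302434 to 34317478 of chromosome 6, minus strand, and Tkfc (ENSMUSG00000034371) spans 10592200 to 10604258 of chromosome 19, minus strand. Positions are on the mouse build GRCm38. The gene models from which reads were counted were 1797 bases long for Khk, 2253 for Tkfc, 3402 for Slc2a5, 5755 for Slc2a2 and 8384 for Akr1b3. For Akr1b3 this length is far from that of its messenger RNA: 4 of its 6 annotated transcripts retain an intron, and its longest coding transcript has 1387 bases, 16.5% of the model. Of the Tkfc model, 117 bases (5.19%) are shared with Cyb561a3 on the opposite strand, and the labels do not settle whether counting used strand.

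The sequence before the RefSeq transcription start is shown for the 4 genes with a RefSeq promoter entry (GRCm38.p6). Khk and Slc2a2 passed the test of genotype in opposite directions in liver, though the rise of Slc2a2 depended on the treatment of length (below). Khk, Slc2a5 and Tkfc shared their highest WT library in ileum, which was also the highest for 49.7% of all genes listed there. Whether these sequences bear on either pattern was not tested. Only bases outside annotated exons are printed, apart from a 30-base site of Khk, and all read 5′ to 3′ on the strand of the gene. Capitals mark matches to the E-box CACGTG, the CCAAT box (CCAAT, or ATTGG on the other strand) or the GC box (CCGCCC, or GGGCGG on the other strand).
Khk, chr5:30921309-30921430, plus strand: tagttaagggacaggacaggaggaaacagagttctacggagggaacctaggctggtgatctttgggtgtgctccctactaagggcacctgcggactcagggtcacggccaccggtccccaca
Khk E-box site, chr5:30921476-30921505, plus strand: agcgttccccgtCACGTGacaccgttaatc
Slc2a5, chr4:150119094-150119235, plus strand: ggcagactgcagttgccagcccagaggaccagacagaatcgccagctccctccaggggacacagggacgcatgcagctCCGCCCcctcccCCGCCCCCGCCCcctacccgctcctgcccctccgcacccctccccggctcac
Slc2a2, chr3:28697653-28697902, plus strand: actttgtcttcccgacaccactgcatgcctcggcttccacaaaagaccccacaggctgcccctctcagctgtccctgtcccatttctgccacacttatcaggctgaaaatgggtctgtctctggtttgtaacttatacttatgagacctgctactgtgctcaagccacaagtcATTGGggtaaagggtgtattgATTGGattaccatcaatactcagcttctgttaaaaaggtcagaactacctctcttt
Tkfc, chr19:10604274-10604508, minus strand: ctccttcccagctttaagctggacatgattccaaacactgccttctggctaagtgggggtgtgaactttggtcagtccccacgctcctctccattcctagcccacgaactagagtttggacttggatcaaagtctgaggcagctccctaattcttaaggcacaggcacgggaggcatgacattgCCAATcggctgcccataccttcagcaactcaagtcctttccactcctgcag

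In the 250 bases before the RefSeq start, Khk had an E-box at positions -71 to -66 and a GC box on the other strand at -38 to -33, outside the bases printed. The Khk gene as placed above starts at base 30921431, upstream of that RefSeq start, so both sites lie inside it. For Khk, 128 of the 250 bases are in annotated exons. Slc2a5 had 3 GC boxes between -172 and -149. Slc2a2 had 2 CCAAT boxes on the other strand, at -77 to -73 and -56 to -52, and Tkfc had 1 at -66 to -62. Among 32851 mouse promoters of this length, 6.02% hold CACGTG, 33.8% a CCAAT box and 32.7% a GC box on either strand. TATAAA, found in 12.4% of them on either strand, was in none of these 4 windows.

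The labels of genotype were checked on Khk (below), and tissue markers were described beside it. The liver table held 6 of 8 hepatocyte markers, with summed normalised counts (the read count divided by a size factor of the library) from 436978 to 483272 in Khk KO and 432541 to 492785 in WT. Sums of this list are no measure of liver alone: in duodenum its 1 listed gene, Apoa1, which enterocytes also express, reached 482625 in WT. Enterocyte markers were listed for every intestinal segment, 1 of 8 in duodenum, 3 in jejunum and 4 in ileum, but 2 of 8 were listed for liver too. Ileum also listed 5 of 8 hepatocyte markers. A marker was listed only where it passed the filter on genotype, so listing does not check the tissue. The distal markers Slc51a and Slc51b were listed in duodenum, jejunum and ileum, and the proximal marker Slc40a1 in ileum alone. In ileum the 4 enterocyte markers (Fabp2, Alpi, Apoa4 and Anpep) summed to 122322 to 160882 in Khk KO and 164589 to 234164 in WT, without overlap. Of the 4, 1 passed in the authors' deposited table. Sums of other lists were lower in Khk KO ileum without overlap as well: immune (2 of 6 listed, 22100 to 46920 against 49215 to 61484), crypt and Paneth (2 of 5 listed, 62119 to 87250 against 94013 to 108251) and erythroid (3 of 5 listed, 177 to 363 against 376 to 737). No overlap was common in that table, at 66.8% of its genes. The 2 crypt and Paneth genes, Lyz1 and Mki67, both passed in the authors' deposited table, 1 of them higher in Khk KO. Their lower sum therefore hides opposite directions. Pancreas acinar markers were limited to Cela1, listed in jejunum and ileum and below 275 normalised counts in each library. The reads of the listed genes came to 1722220 to 14331517 per library.

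Khk, the deleted gene, fell in all 4 organs, and no Khk KO library reached the lowest WT library of its organ. In liver the Khk KO libraries held 743, 1000.3, 909 and 852 normalised counts and the WT libraries 5784, 7084, 11769 and 7049. In duodenum the Khk KO values were 640.0, 616, 736 and 611 and the WT values 24008, 10952, 12314 and 9414. In jejunum they were 541, 837, 805 and 827 against 13852, 6477, 6647 and 5580, and in ileum 113, 122, 111 and 83.8 against 2617, 1235, 1431 and 1174. The values are in order of replicate number from 1 to 4, and in each organ the WT libraries spanned a wider range than the Khk KO libraries.

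**Figure D1:**
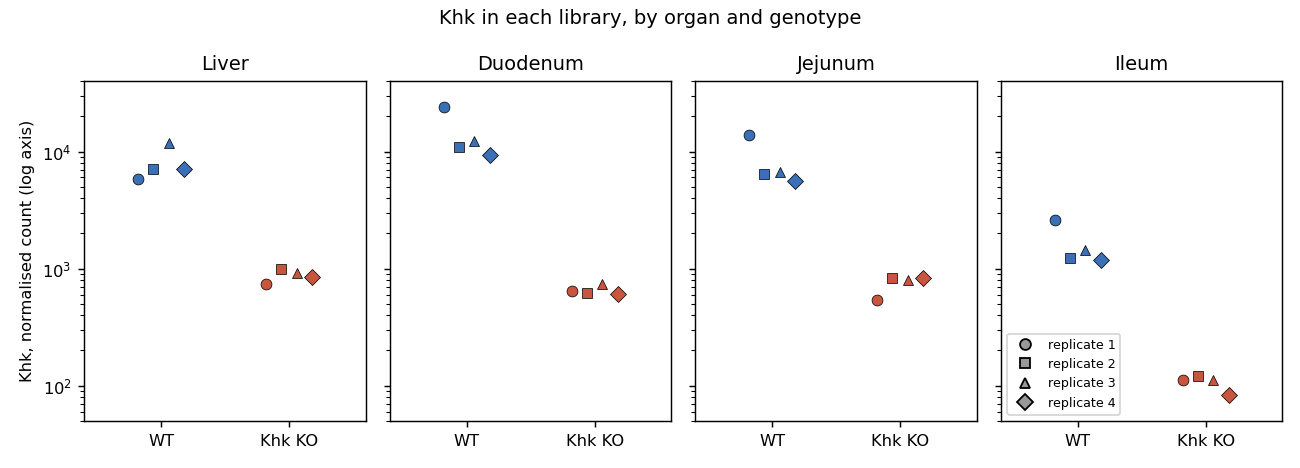
Normalised counts of Khk (log axis) in each of 4 WT (blue) and 4 Khk KO (red) libraries per organ, with the replicate number of the labels as the symbol. The Khk KO points lie below all WT points in each panel, and WT replicate 1 is the highest WT point in duodenum, jejunum and ileum.

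The remaining Khk signal was 11.1% of the WT mean in liver, 9.25% in jejunum, 6.65% in ileum and 4.59% in duodenum. By edgeR's quasi-likelihood test the log2 fold change of Khk was -4.25 ± 0.24 (SE) in duodenum (adjusted p = 4.37e-04) and -3.88 ± 0.24 (SE) in ileum (adjusted p = 1.02e-04). It was -3.41 ± 0.27 (SE) in jejunum (adjusted p = 0.00224) and -3.14 ± 0.21 (SE) in liver (adjusted p = 2.67e-04) by edgeR's test. The genotypes did not overlap for Khk, which in jejunum held for 56% of the listed genes and for 1 of the 2 fructose genes. At the threshold of 0.05, 1 of the 2 fructose genes listed for duodenum passed, Khk. The calls of the same fit came to 0.0064% of the genes that the authors tested there. Khk was also 1 of 2 in jejunum, where 0.0101% passed, and 1 of 4 in ileum, where 13.9% passed. In liver Khk and Slc2a2 made 2 of 4, where 14.7% passed, 7.19% higher and 7.49% lower. The ileum share was made of 7.5% higher and 6.36% lower. These shares are of all genes that the authors tested. Only listed genes were in the fit and could pass, and these had already passed the filter of the table. Of the listed genes alone, 42% passed in liver, 42.8% in ileum, 0.0638% in duodenum and 0.0414% in jejunum, so that 2 of 4 in liver and 1 of 4 in ileum were near the share of the table. Khk also passed in the authors' deposited table of each organ, as did 0.0961% of all genes tested in the lower direction in duodenum, 0.223% in jejunum, 6.86% in ileum and 11.4% in liver. After removal of each library's trend with gene-model length, the log2 fold changes of Khk were -3.99 (duodenum), -3.36 (ileum), -2.87 (jejunum) and -2.52 (liver), and each passed. With the replicate number as a block, Khk in jejunum had -3.34 and an adjusted p of 0.128.

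Levels of different genes were compared in FPKM, the authors' value scaled by length of gene model and by sequencing depth. In WT liver the order was Khk (380 ± 131 FPKM, SD, n = 4), Slc2a2 (94.3 ± 3.95), Slc2a5 (5.83 ± 0.494) and Akr1b3 (1.31 ± 0.626), each separated from the next by more than their SDs. In Khk KO liver Slc2a2 came first, with 133 ± 7.56 FPKM against 41.3 ± 5.26 for Khk (SD, n = 4). The same exchange of places occurred in jejunum, where WT libraries held 269 ± 133 FPKM of Khk and 90.3 ± 17.7 of Slc2a2, and Khk KO libraries 24.7 ± 4.70 and 123 ± 15.0 (SD, n = 4). In WT ileum Tkfc (59.7 ± 10.5 FPKM) and Khk (42.8 ± 16.9) lay within their spread of each other, above Slc2a5 (15.8 ± 5.12) and Akr1b3 (3.96 ± 0.191, SD, n = 4). Tkfc was above Khk in every WT ileum library. Per length of the coding transcripts the WT means were 48.8 ± 8.61 for Tkfc and 48.6 ± 19.2 for Khk (SD, n = 4). In Khk KO ileum Khk stood at 2.86 ± 0.419 FPKM and Akr1b3 at 3.12 ± 0.219 (SD, n = 4), but per length of the coding transcripts they stood at 3.25 ± 0.475 and 18.9 ± 1.33. Per length of its coding transcript, Akr1b3 in WT libraries would be 7.90 ± 3.79 FPKM in liver, 22.2 ± 2.94 in duodenum and 23.9 ± 1.16 in ileum (SD, n = 4). On that scale its place relative to Slc2a5 (6.29 ± 0.532 in liver and 17.0 ± 5.51 in ileum) could not be separated in liver and was higher by more than the SD of either in ileum.

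**Figure D2:**
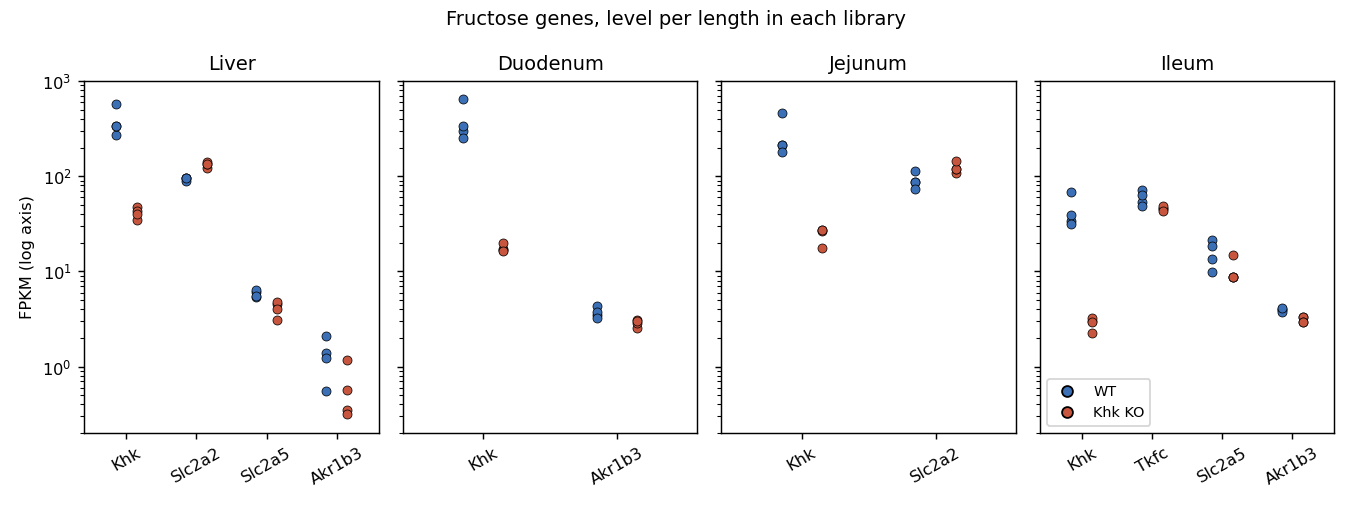
FPKM (log axis) of each listed fructose gene in every WT (blue) and Khk KO (red) library, 4 per group, by organ, with lengths as in the gene models of the authors. Khk lies above Slc2a2 in WT liver and jejunum and below it in Khk KO libraries, while Slc2a2, Slc2a5, Akr1b3 and Tkfc differ far less between the genotypes.

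By organ, WT Khk was 384 ± 180 FPKM in duodenum, 380 ± 131 in liver, 269 ± 133 in jejunum and 42.8 ± 16.9 in ileum (SD, n = 4). The first 3 lay within their spread of each other, and every WT ileum library lay below every WT library of the other organs. In Khk KO libraries the order was liver (41.3 ± 5.26 FPKM), jejunum (24.7 ± 4.70), duodenum (17.6 ± 1.57) and ileum (2.86 ± 0.419, SD, n = 4). Slc2a2 was close in WT liver and jejunum, at 94.3 and 90.3 FPKM, and Slc2a5 and Akr1b3 were lower in WT liver (5.83 and 1.31 FPKM) than in WT ileum (15.8 and 3.96 FPKM). The tables of the organs were normalised separately, so these differences between organs were not tested.

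Of the other 4 genes, Slc2a2 passed the test, in liver, where it was higher in Khk KO. It also passed in the authors' deposited table (adjusted p = 1.45e-04), as did 12.5% of all genes tested there in the higher direction. In liver the Khk KO libraries held 8356, 9138, 9446 and 9091 normalised counts and the WT libraries 6621, 6319, 5849 and 6474. Each Khk KO library was above each WT library. Khk, Slc2a2 and Slc2a5, or 3 of the 4 fructose genes listed for liver, had no overlap between the genotypes, beside 65% of all genes listed there. Mean Slc2a2 was 6316 ± 335 in WT and 9008 ± 462 in Khk KO (SD, n = 4), which is 143% of WT. The log2 fold change was 0.54 ± 0.10 (SE), with an adjusted p of 0.0183 from edgeR's quasi-likelihood test, and an exact permutation test (two-sided, 8 libraries) gave p = 0.0286, the smallest that 4 against 4 libraries allow. This rise depended on the treatment of length: the log2 fold change was 0.19 (adjusted p = 0.392) with the trend with gene-model length taken out, and -0.16 (adjusted p = 1) with the trend with coding-transcript length taken out. Both trends were estimated on listed genes alone, all of which had passed the filter on genotype. The rise also lost the threshold in 6 of 8 fits without 1 library, with adjusted p-values up to 0.0677, and kept it without WT replicate 1 or WT replicate 3. The log2 fold change of Slc2a2 stayed between 0.47 and 0.54 in these 8 fits. In the 6 that lost the threshold, 9 to 689 genes were called over the liver table, against 2675 with all libraries.

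In jejunum Slc2a2 did not pass. Its Khk KO libraries held 10716, 11720, 11555 and 14061 normalised counts and its WT libraries 10919, 8499, 8619 and 7151. WT replicate 1 lay above the lowest Khk KO library, and the other 3 WT libraries lay below all Khk KO libraries. The log2 fold change was 0.45 ± 0.13 (SE), with an adjusted p of 0.237 from edgeR's quasi-likelihood test, and it was 0.30 and 0.052 with the trends with gene-model and coding-transcript length taken out.

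Slc2a5 was lower on average in Khk KO in both organs that listed it, and did not pass in either. In liver the Khk KO libraries held 182, 189, 162 and 124 normalised counts against 218, 239, 250.3 and 215 in WT, without overlap. The log2 fold change was -0.46 ± 0.18 (SE), with an adjusted p of 0.102 from edgeR's quasi-likelihood test. DESeq2 on the same listed genes gave -0.49 and an adjusted p of 0.0456, but the authors' deposited adjusted p was 0.0534. With the trends with gene-model and coding-transcript length taken out, the log2 fold change was -0.18 and -0.48. In ileum the values were 614, 628, 623 and 1045 in Khk KO and 1555, 680.0, 1289 and 968 in WT. Here 3 Khk KO libraries lay between 614 and 628 and below all WT libraries, and Khk KO replicate 4 lay above 2 of the WT libraries. The log2 fold change in ileum was -0.60 ± 0.24 (SE), with an adjusted p of 0.111 from edgeR's quasi-likelihood test. The authors' deposited adjusted p was 0.0865. In the 8 edgeR fits without 1 library, 0 passed. They ran from -0.83 without Khk KO replicate 4 (adjusted p = 0.0506) to -0.48 without WT replicate 1 (adjusted p = 0.202). The summed enterocyte, immune, crypt and Paneth, and erythroid markers were lower in the same Khk KO ileum libraries (above), and their part in this difference, as in those of Akr1b3 and Tkfc there, was not tested. In bulk tissue, fewer cells of a type and less RNA per cell cannot be told apart.

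**Figure D3:**
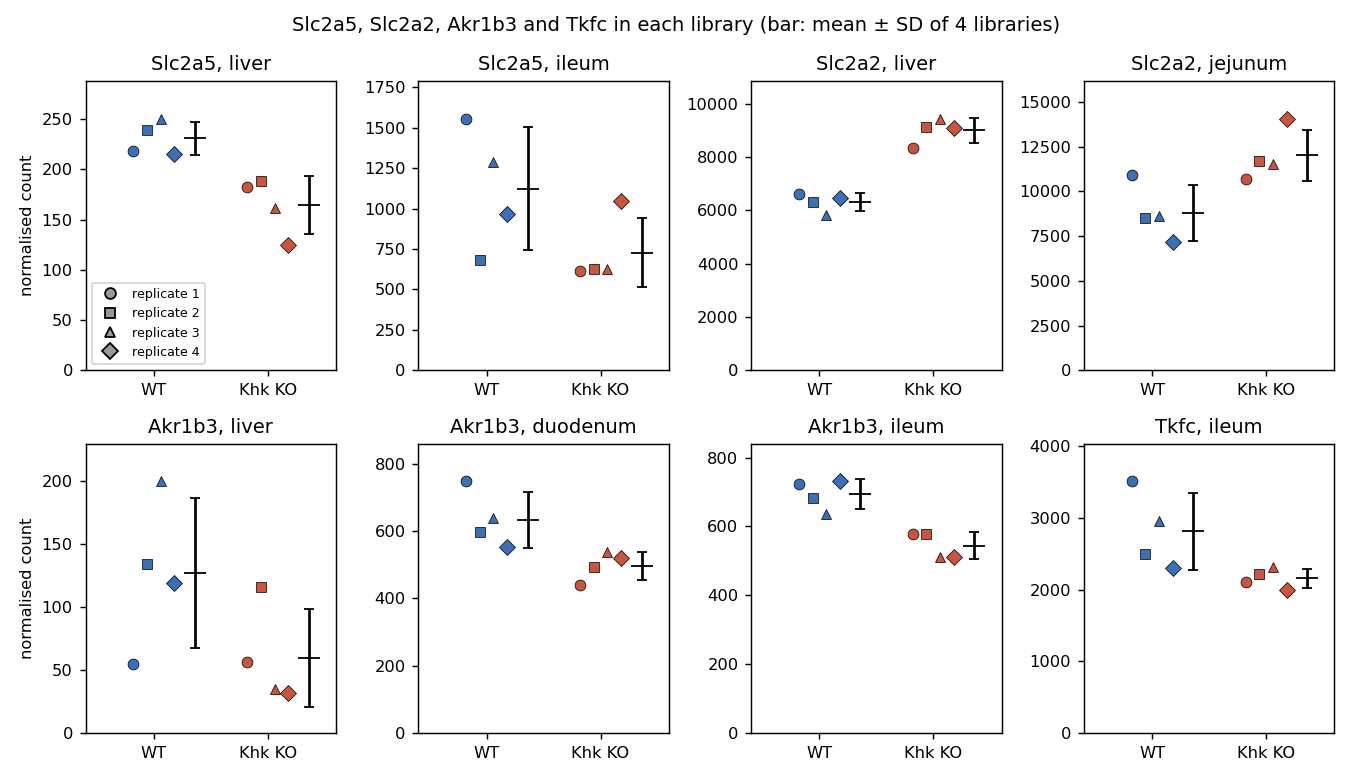
Normalised counts (linear axis from 0) of Slc2a5, Slc2a2, Akr1b3 and Tkfc in each of 4 WT (blue) and 4 Khk KO (red) libraries, for the organs whose tables list them, with the mean ± SD in black. The genotypes do not overlap for Slc2a5 and Slc2a2 in liver and for Akr1b3 in duodenum and ileum, and they overlap in the other 4 panels.

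Akr1b3 was below WT on average in the 3 organs that listed it, at 47.0% of the WT mean in liver, 78.4% in duodenum and 78.5% in ileum, and passed in none of them. In duodenum the Khk KO libraries held 439, 492, 537 and 518 normalised counts against 747, 596, 638 and 552 in WT. In ileum they held 579, 578, 510.0 and 511 against 724, 684, 637 and 731. The genotypes did not overlap in either segment, which also held for 45.9% of the genes listed for duodenum and 66.8% of those listed for ileum. In liver the gene was near the low end of what was counted, with 56.6, 116, 34.5 and 31.8 normalised counts in Khk KO and 54.7, 134, 200 and 119 in WT, and WT replicate 1 lay among the Khk KO values.

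The log2 fold changes of Akr1b3 were -1.05 ± 0.46 (SE) in liver, -0.20 ± 0.10 (SE) in duodenum and -0.34 ± 0.11 (SE) in ileum, and their adjusted p-values by edgeR's quasi-likelihood fit were 0.151, 1 and 0.0644. In duodenum the scaling of that fit lies 0.15 above the size factors of the authors, whose deposited table gave Akr1b3 a log2 fold change of -0.35. The deposited adjusted p-values of Akr1b3 were 0.0546 in liver, 0.482 in duodenum and 0.0603 in ileum. The choice of length decided the outcome in ileum. With the trend at the gene-model length of 8384 bases taken out, Akr1b3 had -0.83 and passed with an adjusted p of 0.00295. At the coding-transcript length of 1387 bases it had 0.13 and an adjusted p of 1. In duodenum the same pair of values was -0.62 and 0.035, and in liver -1.89 and -0.40, none of which passed. In liver it passed without WT replicate 1, at -1.34 and an adjusted p of 0.0235, and in ileum without WT replicate 1, at -0.38 and 0.0269.

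Tkfc, the triokinase gene, was listed for ileum alone. The Khk KO libraries held 2099, 2210, 2313 and 1994 normalised counts and the WT libraries 3507, 2491, 2955 and 2301. Khk KO replicate 3 lay above WT replicate 4, and the other 3 Khk KO libraries lay below all WT libraries. The mean in Khk KO was 76.5% of that in WT, and the log2 fold change of -0.37 ± 0.11 (SE) had an adjusted p of 0.0524 from edgeR's quasi-likelihood test. The authors' deposited adjusted p was 0.0828. In edgeR's fit Tkfc passed without WT replicate 1 (adjusted p = 0.0358) and without WT replicate 4 (adjusted p = 0.0228). With the trend with gene-model length taken out the value was 0.072, and with that of coding-transcript length -0.21, and neither passed.

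**Figure D4:**
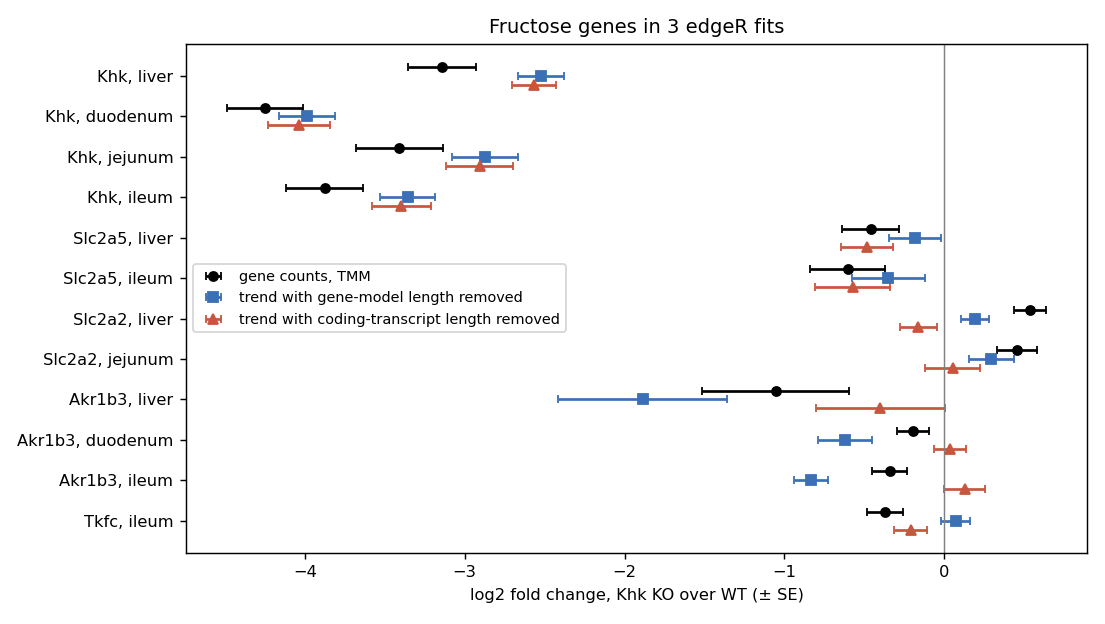
Log2 fold change (Khk KO relative to WT) with its SE for the 12 listed combinations of gene and organ, in the edgeR fit with TMM scaling (black) and in fits with the trend with gene-model length (blue) or coding-transcript length (red) taken out of each library. Khk stays at or below -2.52 in the 3 fits, whereas Slc2a2 in liver, Akr1b3 in duodenum and ileum and Tkfc in ileum have values on both sides of 0.

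The highest intestinal WT value of these genes was mostly in WT replicate 1. Of the 8 intestinal WT groups with a listed fructose gene, 7 had their highest value in WT replicate 1, the exception being Akr1b3 in ileum. The libraries with this number are different ones in each segment, and whether they came from the same mouse was not given. Each was high over its table as a whole. They held the highest WT value of 51.8% of the genes listed for duodenum, 46.3% for jejunum and 49.7% for ileum. The summed normalised counts of the listed genes were 3654215 in WT replicate 1 of duodenum against 2230504 to 2508087 in the other WT libraries, 4829493 against 3236428 to 3476582 in jejunum and 10599569 against 7510994 to 7861882 in ileum. Relative to the mean of the other 3 WT libraries, WT replicate 1 held 2.22 times as much Khk in jejunum, 2.20 times in duodenum and 2.04 times in ileum. The ratio was 1.59 for Slc2a5, 1.36 for Tkfc and 1.35 for Slc2a2 in their intestinal segment and 1.26 for Akr1b3 in duodenum. In liver WT replicate 1 was the lowest WT library for Khk and Akr1b3, and WT replicate 3 the highest for Khk, Slc2a5 and Akr1b3. Without WT replicate 1, the log2 fold change of Khk was -3.98 in duodenum, -3.10 in jejunum, -3.62 in ileum and -3.31 in liver, and Khk passed in each organ.

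A list of 38 other genes of hexose handling, chosen with earlier results of these data known, was counted in the same tables. In liver, 10 were listed and 8 passed in the authors' deposited table, 1 higher and 7 lower in Khk KO. These 8 are 21.1% of the list, beside 23.9% of all genes tested there, 12.5% higher and 11.4% lower. The median log2 fold change of the 10 was -0.58 in the authors' deposited table, and that of all genes listed for liver 0.42. Among the lower genes were the glycolytic genes Aldoa (mean normalised count 1845 ± 174, WT 2459 ± 324) and Tpi1 (3927 ± 254, WT 6386 ± 598) and the gluconeogenic gene Fbp1 (13926 ± 426, WT 22429 ± 4295, SD, n = 4). Mlx, whose product pairs with the carbohydrate-sensing factor ChREBP, averaged 644 ± 189 normalised counts in WT and 404 ± 26.0 in Khk KO. Mlxipl, the gene of ChREBP, averaged 3729 ± 491 in WT and 6040 ± 874 in Khk KO (SD, n = 4). The transporter gene Slc2a4, also lower, was near the floor, with at most 27.0 normalised counts in any liver library. Slc2a4 was left out of edgeR's fit by its filter on low counts. In edgeR's quasi-likelihood test 5 of the 10 passed, 4 lower (Tpi1, Fbp1 and Mlx among them) and Mlxipl higher, with adjusted p-values from 0.0157 to 0.0458. These 5 are 13.2% of the list, beside 14.7% of all genes that the authors tested. None passed with the trend with gene-model length taken out, and 1, Mlxipl, passed with that of coding-transcript length (0.53, adjusted p = 0.0390).

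For the ileum, 12 of the 38 were listed and 7 passed in the authors' deposited table, 2 higher and 5 lower, which is 18.4% of the list beside 15.6% of all genes tested, 8.76% higher and 6.86% lower. The median log2 fold change of the 12 was -0.52 in the authors' deposited table, beside 0.30 for all genes listed for ileum. Among the lower genes were Aldoa (mean normalised count 10224 ± 1049 in Khk KO against 16099 ± 7053) and the transporter genes Slc2a6 (44.9 ± 14.7 against 96.2 ± 55.6), Slc2a8 (148 ± 21.1 against 230 ± 55.7) and Slc5a11 (166 ± 32.6 against 314 ± 41.0, SD, n = 4). The higher genes were Hk2, a hexokinase gene (3712 ± 783 against 2442 ± 490), and Slc2a13, a transporter gene (219 ± 29.6 against 146 ± 13.4, SD, n = 4). In edgeR's quasi-likelihood test, whose filter left out those of the 12 with very low counts, 4 passed, with adjusted p-values from 0.0110 to 0.0462. Slc5a11, Hk2 and Slc2a13 were among these 4. These 4 are 10.5% of the list, beside 13.9% of all genes that the authors tested, and 0 passed in either fit with a length trend taken out. WT replicate 1 held 26639 normalised counts of Aldoa and the other WT libraries down to 11952.

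Duodenum and jejunum listed 7 and 4 of the 38. Here the list lay above the table, unlike in liver and ileum. Its median log2 fold change in the authors' deposited table was 0.315 in duodenum, beside -0.331 for all genes listed there. In jejunum it was 0.488, beside 0.350. In duodenum 1 of the 7 passed in the authors' deposited table, where 0.224% of all genes tested passed. None of the 4 passed in jejunum, where 0.759% of all genes did. The gene that passed was Akr1b8, an aldo-keto reductase gene 36.6 kb from Akr1b3, with 1582 ± 452 normalised counts in WT and 718 ± 190 in Khk KO duodenum (SD, n = 4). Its log2 fold change of -0.99 ± 0.25 (SE) had an adjusted p of 0.958 in edgeR's quasi-likelihood test. Slc2a7, a close relative of Slc2a5, was listed in both segments and did not pass. It averaged 1505 ± 245 against 1063 ± 77.3 normalised counts in duodenum and 1308 ± 223 against 866 ± 54.0 in jejunum, Khk KO against WT (SD, n = 4), without overlap in either, as for 45.9% of the genes listed for duodenum and 56% of those for jejunum. One of the 4 jejunal entries carries the symbol Aldoa but is a separate gene model (ENSMUSG00000114515) with at most 24.0 normalised counts in a library.

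The surroundings of the genes were described within 500 kb on either side. Near Khk, 10 genes were listed for liver and 7 passed in the authors' deposited table, 9 were listed for ileum and 6 passed, and 0 of the 2 in duodenum and 5 in jejunum passed. Of all genes listed, 2.23% passed in duodenum, 3.11% in jejunum, 48.3% in ileum and 68.5% in liver in the authors' deposited table, so the counts near Khk were close to those of the tables. Cgref1, which lies 1.90 kb beyond the end of Khk on the opposite strand, averaged 2369 ± 917 normalised counts in WT ileum and 1305 ± 49.9 in Khk KO ileum (SD, n = 4). Ost4, 13.6 kb from Khk, was lower in Khk KO liver (323 ± 29.3 against 562 ± 59.3 normalised counts) and ileum (554 ± 42.8 against 852 ± 289, SD, n = 4). Atraid, 117 kb from Khk, was also lower in both organs. In liver Cad, Ift172 and Gtf3c2 were called higher and Ost4, Atraid, Eif2b4 and Nrbp1 lower, so the neighbours of Khk did not move in 1 direction there, while the 6 called in ileum (Atraid, Cgref1, Slc5a6, Tmem214, Mapre3 and Ost4) were all lower. Of all genes called in the authors' deposited table for ileum, 1405 were higher and 1100 lower. The direction of the neighbours was not tested against these counts. Near Tkfc, 5 of 7 genes listed for liver passed in the authors' deposited table (Vwce, Myrf, Syt7 and Cpsf7 higher, Sdhaf2 lower) and 1 of 9 listed for ileum (Ms4a10, lower), beside the same 68.5% and 48.3%. Near Slc2a5, Rere was higher and Eno1 and Slc25a33 lower in liver, and Eno1 was lower in ileum. Near Akr1b3, Bpgm was lower in ileum. Near Slc2a2, Tnik, 22.1 kb away, was higher in Khk KO in liver (55.0 ± 11.3 against 11.3 ± 12.5 normalised counts), jejunum (1524 ± 262 against 966 ± 104) and ileum (1024 ± 82.1 against 618 ± 106, SD, n = 4). The noncoding gene 1700112D23Rik overlaps the Slc2a2 gene on the other strand without sharing exon bases, and averaged 9.28 ± 6.47 normalised counts in WT liver and 38.8 ± 9.77 in Khk KO liver (SD, n = 4). Rpl22l1, also near Slc2a2, was lower in liver.

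To see which genes varied most like each fructose gene between libraries of the same group, Pearson's r was computed on log2(normalised count + 1) after removal of the mean of each organ and genotype. These are descriptions across libraries that share depth and scaling. For Khk, over 32 libraries and 207 genes listed in all 4 tables, the highest values were 0.878 for Atp5l, 0.876 for Dhrs7b and 0.875 for Hexa. For Slc2a5, over 16 libraries of liver and ileum and 2501 genes, they were 0.867 for Creb3l3, a transcription factor gene of liver and intestine, 0.791 for Gpd1, a glycerol-3-phosphate dehydrogenase gene, and 0.758 for Dnal4. For Slc2a2, over 16 libraries of liver and jejunum and 1155 genes, they were 0.782 for Prr13, 0.756 for mt-Nd6 and 0.750 for Msra. Akr1b3, over 24 libraries and 400 genes, was closest to Bckdk (0.769), Lsm3 (0.740) and Myg1 (0.694). Tkfc, over the 8 ileum libraries and 4163 genes, was closest to Ncaph2 (0.987), Nsmce1 (0.976) and Sgta (0.972), where so few libraries give high values easily.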

How the data were processed

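Reads were aligned with HISAT2 2.0.5 to GRCm38 (mm10), per the submitters' processing notes. The counting tool, annotation and test were not given in the sources used here. Per the file headers, the authors deposited for each organ raw read counts, a normalised signal (the count divided by 1 size factor per library), FPKM, a log2 fold change, and a p-value with its adjusted p-value. Gene positions equalled GENCODE M21 for 95.7% to 96.5% of the genes. The duodenum libraries carry another series of library names than the other organs, and each series holds both genotypes.

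Counts were refitted per organ with edgeR 4.0.16 in R 4.3.3 (TMM, filterByExpr, quasi-likelihood test, library totals implied by FPKM), and adjusted by Benjamini and Hochberg over as many genes as the deposited adjusted p-values imply (liver 18225, ileum 16034, duodenum 15615, jejunum 9881), since the tables are filtered. The SE is the size of the log2 fold change divided by the square root of F. The fits were run on simulated counts in which most genes did not change and no length trend was put in. The listed genes had all passed the filter on genotype, so that simulation cannot show how the fits behave on them. Alternatives were the size factors of the authors, DESeq2 1.42.0, no filter, a lowess trend (span 0.5) on length, a replicate block and leaving out each library. A length trend taken out also removes any genotype effect that follows length. The trends and the TMM scaling were estimated on listed genes alone, which had been selected for a difference between the genotypes. How they would differ over all genes was not tested. Replicate libraries differed by at least 11.2 in chi-square per degree of freedom over 48 pairs.

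The 5 genes and the lists were chosen with earlier results of these data known. Named genes were the 5 genes, list genes and neighbours within 500 kb past an adjusted p of 0.05 in the authors' deposited table, and the 3 genes of highest r for each, among protein-coding genes averaging 50 or more normalised counts. Python 3.11.15 with numpy 2.4.6, pandas 2.3.3 and matplotlib 3.10.9 was used. Some genes of the list are not reported here by name.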

Additional observations from a re-analysis of the deposited data

Results flagged for a closer look

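In 3 of the 24 groups of 4 libraries, 1 value lay apart from the rest, with a gap to its nearest neighbour that exceeded Dixon's critical share of the range of the group. Chance gives this in about 1 of 20 groups. Khk in Khk KO jejunum had 541 normalised counts in replicate 1 against 805 to 837 in the other libraries (gap over range 0.893). Khk in WT jejunum had 13852 in replicate 1 against 5580 to 6647 (0.871). Slc2a5 in Khk KO ileum had 1045 in replicate 4 against 614 to 628 (0.968).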

How the results depend on the processing

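Among refits of the 12 combinations of gene and organ, 148 kept their direction and their side of the threshold, 8 lost it, 8 gained it and 4 changed sign. The changes of sign were Slc2a2 in liver (-0.16), Akr1b3 in duodenum (0.035) and Akr1b3 in ileum (0.13) with the trend with coding-transcript length removed, a setting chosen after seeing the data, and Tkfc in ileum (0.072) with that of gene-model length. Slc2a2 in liver fell under the threshold with the gene-model trend (0.19). Slc2a5 in liver (-0.49) and Akr1b3 in ileum (-0.35) passed with DESeq2, Akr1b3 in ileum with the gene-model trend (-0.83) and Tkfc in ileum with no filter (-0.39). In the authors' deposited table these did not pass, with adjusted p of 0.0534 for Slc2a5 in liver, 0.0603 for Akr1b3 in ileum and 0.0828 for Tkfc. Leaving out 1 library gave 0.47 to 0.54 for Slc2a2 in liver, -1.63 to -0.77 for Akr1b3 in liver, -0.45 to -0.31 for Tkfc in ileum and -0.39 to -0.30 for Akr1b3 in ileum. The cause was not tested.

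Replicate numbers did not pair the samples: correlations of deviations between same-numbered libraries ran from -0.292 to 0.315. With the replicate block, Khk in jejunum (-3.34) missed the threshold. The block called 0 genes in jejunum with edgeR (1715 at an unadjusted p under 0.05, and 262 with DESeq2 without the block) and 1202 in ileum.

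Genes called were 2675 (liver), 1 (duodenum), 1 (jejunum) and 2221 (ileum). Taking organs in that order, they were 4375, 30, 262 and 3391 with DESeq2, and 5199, 4, 1175 and 4494 when adjusted over the listed genes alone. The gene-model trend gave 786 in liver, 2 in duodenum and 476 in ileum, and the coding-transcript trend 631, 2 and 283. Without 1 library they ranged from 9 (without Khk KO replicate 2) to 4860 (without WT replicate 1) in liver, from 656 to 2912 in ileum, 1 to 3 in jejunum and 1 to 2 in duodenum. The size factors of the authors moved the ileum calls from 1202 higher and 1019 lower to 1045 and 540, and the block to 813 and 389. The depth of the libraries is unknown beyond the listed genes, which limits what low counts such as Akr1b3 in liver can show.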
